A study of Homo sapiens with 6 samples.

Results

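The Hippo pathway and its transcriptional outputs were examined through 39 genes, selected by symbol from a deposited table of 20422 genes. Of the 39, 29 encode components of the pathway (kinases, scaffolds, the coactivators YAP1 and WWTR1, the TEAD factors and VGLL4) and 10 are output genes, whose transcription YAP and TEAD proteins are known to raise. The genes were chosen by their known roles while earlier results of the same libraries were known, and the study itself had picked CCN1 and CCN2 from them, so their differences between the groups are given as a description. HepG2, an established human liver cancer cell line, was profiled by RNA sequencing in 3 control libraries (NC) and 3 libraries of cells that overexpressed Flag-tagged APPLE (ORF-Flag), a microprotein encoded by the long noncoding RNA ASH1L-AS1. NC cells carried the vector alone, and the labels describe delivery by transfected plasmids while the study's methods describe stable lines made with lentiviral vectors and selected with puromycin, so both forms are given here. The level of ASH1L-AS1 was not analysed here, and the labels were not checked against it.

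The comparison of ORF-Flag with NC asked how transcripts of the pathway and of its outputs differed when APPLE was overexpressed. The table held counts of reads per gene, and the library totals were 20081203, 24907524 and 30088457 counts in NC replicates 1, 2 and 3 and 26866148, 17494668 and 27015836 counts in ORF-Flag replicates 1, 2 and 3. Levels are given as CPM, the counts of a gene per 1000000 counts of its library after TMM normalization, which adjusts the library totals for differences in composition, and values of a group are listed in the order of its replicates. In these libraries 3 counts correspond to between 0.0997 and 0.171 CPM. No source says that the libraries of a group came from separate cultures, so p-values measure the spread between these libraries alone, which may be technical.

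Hippo signalling is a kinase cascade that limits organ size and cell growth, and the liver is one of the organs in which its loss is known to cause overgrowth and tumours. When cells are crowded, the kinases STK3 and STK4 activate LATS1 and LATS2, which phosphorylate the coactivators YAP (encoded by YAP1) and TAZ (encoded by WWTR1), so that these are held in the cytoplasm or degraded. When the cascade is quiet, YAP and TAZ enter the nucleus, bind TEAD factors on DNA and raise genes such as CCN1, CCN2 and ANKRD1. Most of this control acts on proteins, through phosphorylation and location, which RNA counts do not measure.

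Of the members that passed the test, the 3 with the largest differences were output genes. In ORF-Flag, CCN1 was 1.87-fold, ANKRD1 1.71-fold, CCN2 1.46-fold and CRIM1 1.108-fold its level in NC. Among the components, AMOTL2 was 1.40-fold and AJUBA 1.17-fold its level in NC. CCN1 stood at 19.2 ± 2.12 CPM (SD, n = 3) in NC libraries and at 36.2 ± 1.29 CPM (SD, n = 3) in ORF-Flag, and AMOTL2 at 12.9 ± 1.35 CPM (SD, n = 3) in NC libraries and at 18.0 ± 0.231 CPM (SD, n = 3) in ORF-Flag. In bulk RNA, fewer cells that express a gene and less of its RNA per cell cannot be told apart. These 6 genes rose with an adjusted p under 0.05 by the quasi-likelihood test of edgeR with Benjamini-Hochberg adjustment over all 12386 tested genes, which is the rule for a call in all that follows. They were 6 of the 37 members with enough counts for the test, and over all tested genes 551 (4.45%) were called, 2.47% higher and 1.98% lower. By list, 4 of 10 output genes and 2 of 27 tested components were called higher. No member was called lower in edgeR's test, with 8 higher and 1 lower at an unadjusted p below 0.05 (beside 9.29% and 9.22% of all tested genes), and DESeq2 and limma-trend called the same 6 members and no other. In 12 of the 37 tested members every ORF-Flag library exceeded every NC library and in 3 every one was below, where over all tested genes the groups did not overlap in 22.4% (11.5% above and 10.9% below). Because the members were chosen with this contrast known, nothing is read from these shares. The count over all tested genes moved with single libraries, to 267 without NC replicate 2, 1058 without NC replicate 3, and 300, 278 and 199 without ORF-Flag replicates 1, 2 and 3, while 5 or 6 members were called higher in each of these fits.

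**Figure D1:**
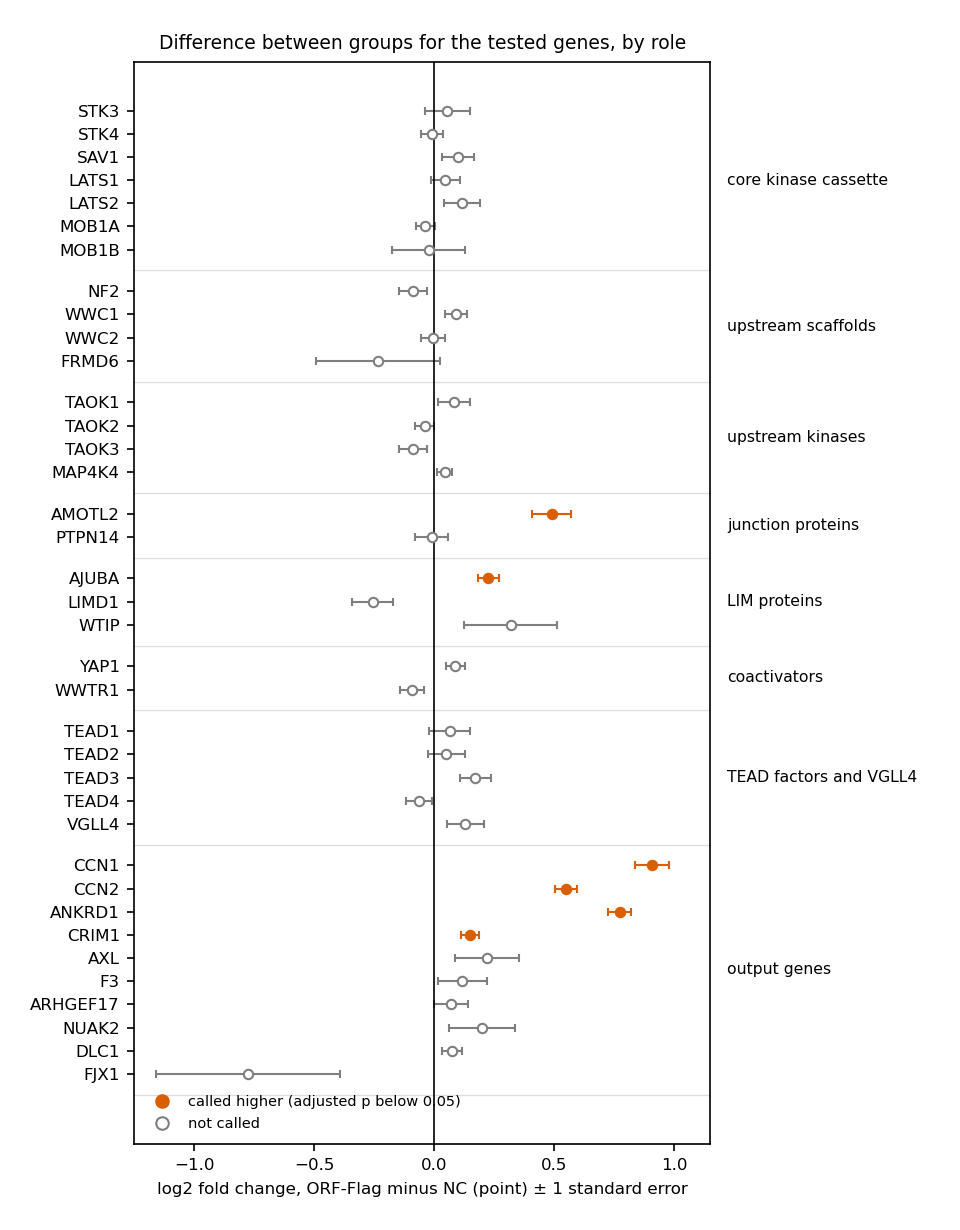
The log2 fold change of ORF-Flag minus NC is drawn for the 37 tested members by role, with bars of 1 standard error (SE) and filled points for genes called higher. The called output genes lie between 0.15 and 0.91 and the called components at 0.49 and 0.23, while the 7 genes of the core kinase cassette lie between -0.039 and 0.11.

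The core cassette is made up of the kinases STK3 and STK4, their scaffold SAV1, the kinases LATS1 and LATS2 and the LATS activators MOB1A and MOB1B. All 7 were tested and none was called, beside 4.45% of all tested genes. At an unadjusted p below 0.05 there were 0, beside 9.29% higher and 9.22% lower over all tested genes, and with 7 genes nothing is read from this. LATS1 had 26.0, 28.2 and 27.9 CPM in NC and 28.2, 28.6 and 28.2 CPM in ORF-Flag. The groups overlapped, and the log2 fold change was 0.045 (SE 0.060), so that 2 SE to each side ran from -0.075 to 0.16. An antisense gene covers 4.72% of its exon length. LATS2, which is itself a known output of YAP in a feedback loop, had 23.7, 19.4 and 21.0 CPM in NC and 22.5, 22.2 and 24.3 CPM in ORF-Flag. NC replicate 1 was close to the highest ORF-Flag library, the groups overlapped, and the log2 fold change was 0.11 (SE 0.073). STK3, STK4, SAV1 and MOB1B also overlapped between the groups, with log2 fold changes from -0.024 in MOB1B to 0.098 in SAV1, of whose exon length 14.9% is covered by the antisense gene ATL1. MOB1A was lower in each ORF-Flag library than in any NC library, at 77.5, 79.1 and 77.7 CPM in NC and 75.9, 76.8 and 75.4 CPM in ORF-Flag, a difference of -0.039 (SE 0.040) on the log2 scale that was not called. Over the 7 genes the median log2 fold change was 0.045, and that over all tested genes was -0.0012.

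To compare levels between genes, the CPM were divided by the exon length of each gene in kilobases (RPKM). That length takes in all annotated exons, whether or not these cells use them, so comparisons between genes depend on it. On this scale the paralogs of the cassette were unequal. Of the summed RPKM of STK3 and STK4, STK4 made up 88.0% ± 0.474 (SD, n = 3) in NC and 87.5% ± 1.05 (SD, n = 3) in ORF-Flag. Of that of MOB1A and MOB1B, MOB1A made up 96.3% ± 0.316 (SD, n = 3) in NC and 96.3% ± 0.553 (SD, n = 3) in ORF-Flag. LATS1 and LATS2 were closer to each other, and LATS2 made up 54.7% ± 3.57 (SD, n = 3) in NC and 55.7% ± 1.30 (SD, n = 3) in ORF-Flag. None of these shares moved beyond the spread between libraries. In CPM the order of the LATS genes was the reverse, with NC means of 27.4 for LATS1 and 21.4 for LATS2.

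Upstream of the cassette, NF2 (the tumour suppressor merlin), WWC1, WWC2 and FRMD6 are scaffolds at the membrane that bring the kinases together. None of the 4 was called, beside 4.45% of all tested genes. None had an unadjusted p below 0.05, beside 9.29% higher and 9.22% lower over all tested genes. WWC1 was the single scaffold whose groups did not overlap, beside 22.4% of all tested genes, and with 4 genes nothing is read from these counts. It had 59.9, 60.2 and 58.5 CPM in NC and 65.7, 61.9 and 62.3 CPM in ORF-Flag and a log2 fold change of 0.091 (SE 0.045). NF2 had a log2 fold change of -0.090 (SE 0.059) and WWC2 of -0.0057 (SE 0.050), and in both the groups overlapped. CLDN22, an antisense neighbour, covers 25.9% of the exon length of WWC2, and reads of overlapping genes could not be told apart without knowing how strand was used in counting. FRMD6 was low, at 25 to 38 counts per library, and its log2 fold change of -0.23 (SE 0.26) carried the widest error of the scaffolds.

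TAOK1, TAOK2, TAOK3 and MAP4K4 are kinases that activate the cassette, the TAO kinases by phosphorylating STK3 and STK4 and MAP4K4 by acting on LATS directly. None of the 4 was called, beside 4.45% of all tested genes. None had an unadjusted p below 0.05, beside 9.29% higher and 9.22% lower over all tested genes, and with 4 genes nothing is read from this. MAP4K4 had the most counts of all members, between 22288 and 37605 per library, and stood at 1252, 1218 and 1256 CPM in NC and 1300, 1280 and 1257 CPM in ORF-Flag. The lowest ORF-Flag library was above the highest NC library by less than 1 CPM, and the log2 fold change was 0.042 (SE 0.031). Its mean over all 6 libraries, 105 RPKM, was above that of 97.4% of the tested genes. Of the summed RPKM of the TAO kinases, TAOK2 made up 68.6% ± 1.57 (SD, n = 3) in NC and 68.4% ± 1.03 (SD, n = 3) in ORF-Flag. The log2 fold changes of TAOK1, TAOK2 and TAOK3 were 0.081 (SE 0.066), -0.041 (SE 0.039) and -0.091 (SE 0.058), and in each the groups overlapped.

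At cell junctions, the angiomotins AMOT, AMOTL1 and AMOTL2 and the phosphatase PTPN14 bind YAP and hold it outside the nucleus. AMOT and AMOTL1 did not pass the filter on low counts and were not tested in the main fit. AMOT had 0, 2 and 1 counts in NC and 6, 0 and 0 counts in ORF-Flag. AMOTL1 had 5, 8 and 7 counts in NC and 2, 0 and 5 counts in ORF-Flag. Adjusted for library size, every ORF-Flag library of AMOTL1 was below NC, at 0.247, 0.320 and 0.234 CPM in NC and 0.0745, 0 and 0.185 CPM in ORF-Flag, on counts too few for more than a description. AMOTL2, the angiomotin with enough counts for the test, had 13.4, 13.97 and 11.4 CPM in NC and 17.8, 18.0 and 18.3 CPM in ORF-Flag. The groups did not overlap, and the ORF-Flag libraries lay closer to each other than the NC libraries did. Its log2 fold change was 0.49 (SE 0.080) and it was called in each of the 6 fits that left out 1 library, with values between 0.40 and 0.55. AMOTL2 (ENSG00000114019) lies on chromosome 3 from 134355874 to 134375479 on the minus strand (GRCh38, GENCODE v29), and the pseudogene RPL39P5 covers 3.12% of its exon length on the same strand. PTPN14 had a log2 fold change of -0.011 (SE 0.068), with overlapping groups, and AL929236.1 on the same strand and the antisense pseudogene KRT18P12 cover 7.27% of its exon length.

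AJUBA, LIMD1 and WTIP are LIM-domain proteins that bind LATS at junctions and restrain it. AJUBA had 65.7, 69.6 and 63.3 CPM in NC and 78.0, 76.5 and 77.5 CPM in ORF-Flag. Each ORF-Flag library exceeded all NC libraries, the log2 fold change was 0.23 (SE 0.044), and the gene was called with each library left out. LIMD1 ran the other way, with 13.9, 16.5 and 13.999 CPM in NC and 11.8, 12.5 and 12.9 CPM in ORF-Flag. Its groups did not overlap either, but the log2 fold change of -0.26 (SE 0.085) was not called with all 6 libraries and was called without NC replicate 3, where it was -0.30. NC replicate 2 was the highest library, and without it the value was -0.17 and not called. The antisense RNA LIMD1-AS1 covers 8.12% of its exon length. WTIP was low, at 45 to 105 counts per library, with a log2 fold change of 0.32 (SE 0.19) and overlapping groups. Its value moved with single libraries, to 0.13 without ORF-Flag replicate 3 and 0.49 without ORF-Flag replicate 1. Of the summed RPKM of the 3 genes, AJUBA made up 89.1% ± 0.678 (SD, n = 3) in NC and 91.4% ± 0.650 (SD, n = 3) in ORF-Flag, and the shares of the groups did not overlap. AJUBA (ENSG00000129474) lies on chromosome 14 from 22971174 to 22982642 on the minus strand, and a gene on the same strand covers 0.836% of its exon length.

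**Figure D2:**
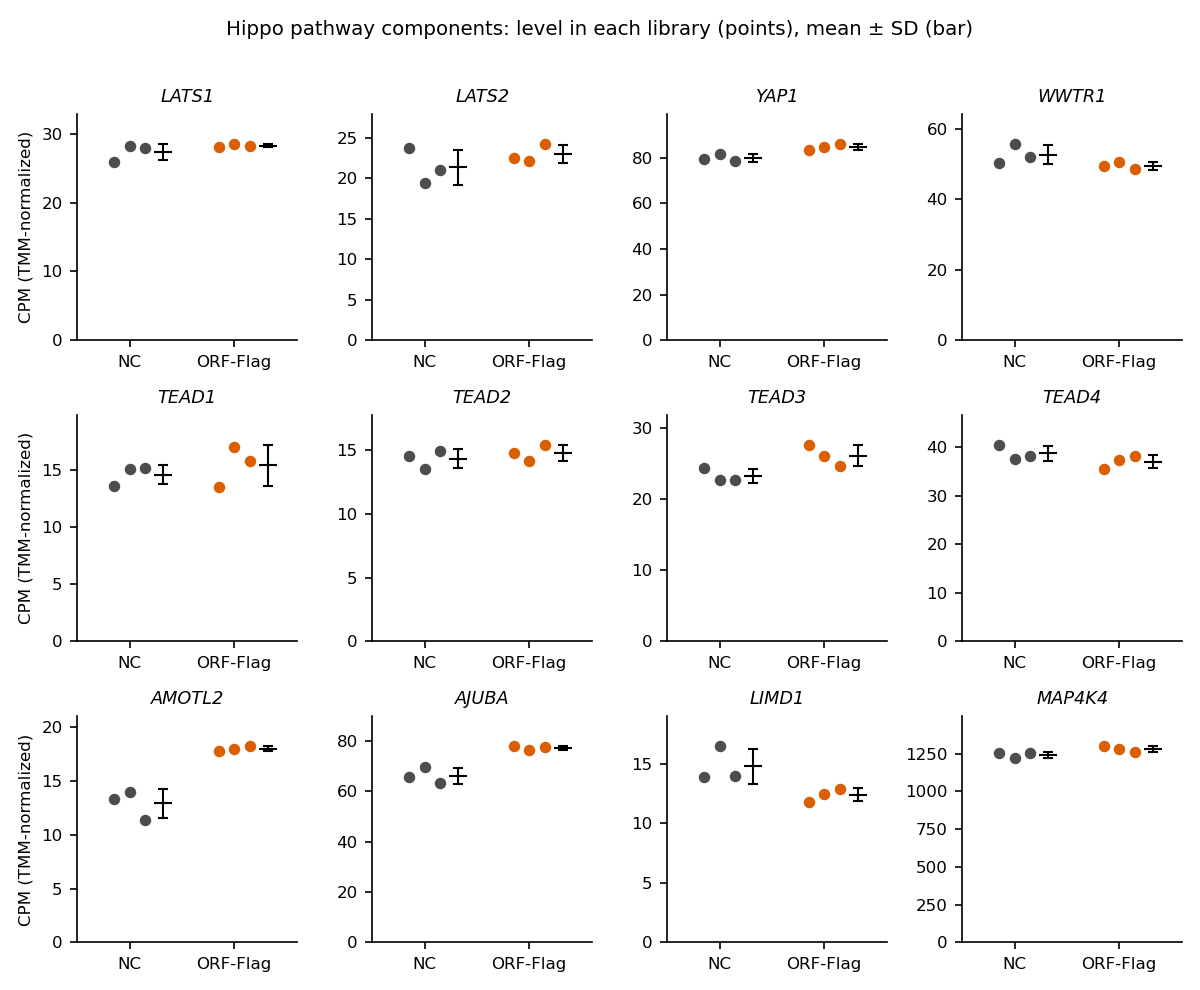
Each panel shows the CPM of 1 component in the 3 NC and 3 ORF-Flag libraries as points, with the mean and SD as a bar and an axis that starts at 0. AMOTL2, AJUBA, YAP1, TEAD3 and MAP4K4 lie higher in every ORF-Flag library and LIMD1 lower, and in the other panels the groups overlap.

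The coactivators YAP1 and WWTR1 carry the signal into the nucleus. YAP1 had 79.5, 81.7 and 78.3 CPM in NC and 83.4, 84.8 and 86.0 CPM in ORF-Flag. All ORF-Flag libraries were above the NC libraries, but the difference was small, with a log2 fold change of 0.086 (SE 0.040), and it was not called. WWTR1 had 50.2, 55.7 and 52.0 CPM in NC and 49.5, 50.6 and 48.4 CPM in ORF-Flag. ORF-Flag replicate 2 lay within the NC range, so the groups overlapped, and the log2 fold change was -0.093 (SE 0.050), not called. Of the summed RPKM of both genes, YAP1 made up 67.0% ± 0.854 (SD, n = 3) in NC and 69.6% ± 0.671 (SD, n = 3) in ORF-Flag, and the shares of the groups did not overlap. Antisense genes cover 9.97% of the exon length of YAP1 and 9.45% of that of WWTR1. Of the 2 genes none was called, beside 4.45% of all tested genes. At an unadjusted p below 0.05, 1, YAP1, was higher, beside 9.29% higher and 9.22% lower over all tested genes. With 2 genes nothing is read from this.

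The TEAD factors bind DNA and need YAP or TAZ to activate, and VGLL4 competes with YAP for them. TEAD1 had 13.6, 15.1 and 15.1 CPM in NC and 13.5, 17.004 and 15.8 CPM in ORF-Flag. TEAD2 had 14.5, 13.5 and 14.97 CPM in NC and 14.8, 14.2 and 15.4 CPM in ORF-Flag. In both the groups overlapped, with log2 fold changes of 0.064 (SE 0.085) and 0.050 (SE 0.077), and the antisense gene CD37 covers 10.7% of the exon length of TEAD2. TEAD3 had 24.4, 22.7 and 22.6 CPM in NC and 27.6, 26.1 and 24.6 CPM in ORF-Flag. Its highest NC library was just below its lowest ORF-Flag library, so the groups did not overlap, and the log2 fold change of 0.17 (SE 0.066) was not called. TEAD4 had 40.5, 37.6 and 38.1 CPM in NC and 35.5, 37.2 and 38.2 CPM in ORF-Flag. The groups overlapped and the log2 fold change was -0.064 (SE 0.054). VGLL4 had a log2 fold change of 0.13 (SE 0.075) with overlapping groups, and antisense genes cover 23.7% of its exon length. Of these 5 genes none was called, beside 4.45% of all tested genes. At an unadjusted p below 0.05, 1, TEAD3, was higher, beside 9.29% higher and 9.22% lower over all tested genes. With 5 genes nothing is read from this.

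Per length, TEAD4 was the leading TEAD transcript of these cells, at 17.04 RPKM in NC beside 7.63 for TEAD3, 4.81 for TEAD2 and 1.42 for TEAD1. In CPM the NC means of TEAD1 and TEAD2 were 14.6 and 14.3, so their distance in RPKM comes from the lengths used. Of the summed TEAD RPKM, TEAD4 made up 55.1% ± 0.469 (SD, n = 3) in NC and 52.0% ± 1.39 (SD, n = 3) in ORF-Flag. The share of TEAD3 was 24.7% ± 0.443 (SD, n = 3) in NC and 27.4% ± 1.86 (SD, n = 3) in ORF-Flag. For both genes the shares of the groups did not overlap, TEAD4 being lower and TEAD3 higher in ORF-Flag, and no test was made of the shares. They are parts of the same sum, so a higher share of TEAD3 goes with lower shares elsewhere. Neither gene was called, and the CPM of TEAD4 overlapped between the groups.

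**Figure D3:**
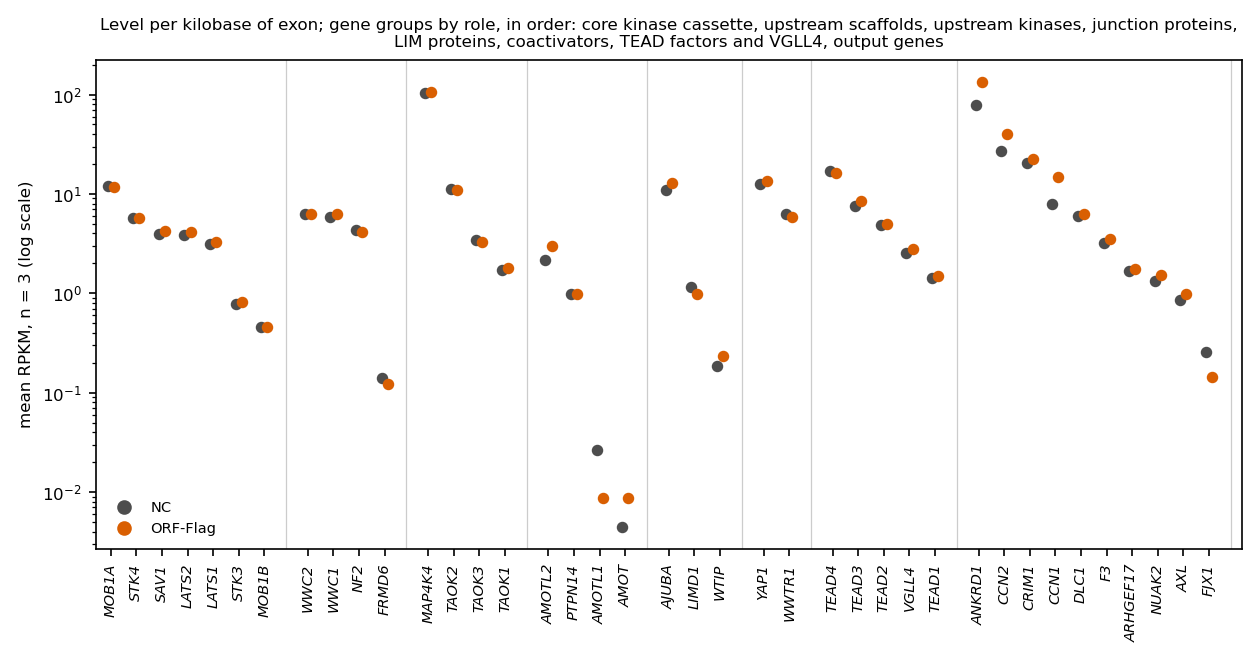
The mean RPKM of each of the 39 members over 3 libraries is drawn on a log axis for NC and ORF-Flag, with the roles separated by vertical lines. MAP4K4 (104 RPKM in NC) and ANKRD1 (77.8 RPKM in NC) stand above the other members, and AMOTL1 (0.0266 RPKM in NC) and AMOT (0.00445 RPKM in NC) stand lowest.

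The output genes were all tested. ANKRD1, CCN1 and CCN2 are the outputs most widely used as readouts of YAP and TAZ. Which factors set their levels in these libraries was not tested. CCN1 and CCN2 encode secreted matricellular proteins that bind integrins, and ANKRD1 encodes an ankyrin repeat protein known from muscle that is induced by YAP in many cell types. Promoter sequence, from 250 bases before to 50 after the start of the gene, was matched for 31 of the 39 members in RefSeq (GRCh38.p14), all but STK3, LIMD1, TEAD1, TEAD4, CCN1, CRIM1, ARHGEF17 and DLC1. These windows were searched on both strands for the TEAD motif, as the letters GGAATG, and for the motif of AP-1, a factor that often binds beside TEAD, as the letters TGANTCA, where N is any base. The TEAD letters were in 8 of 31 member windows (25.8%), 3 of 6 among outputs and 5 of 25 among components, beside 11.7% of the 15342 windows of genes in the table. The AP-1 letters were in 3 of the 31 (9.68%), 2 of 6 among outputs and 1 of 25 among components, beside 5.74% of all windows. A match to either is a description of letters and not a bound site.

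The 250 bases before the start are shown for the 2 called outputs with a window, for AMOTL2, a called component, and for NUAK2, an output that was not called, each 5′ to 3′ on the minus strand of GRCh38.p14 with TEAD or AP-1 letters in capitals. CCN2 (chr6:131951373-131951622) held 3 TEAD matches, the nearest to the start reaching from -95 to -90. ANKRD1 (chr10:90921088-90921337) held 2 TEAD matches and 1 AP-1 match, TGATTCA, between them. AMOTL2 (chr3:134375418-134375667) held none, and NUAK2 (chr1:205321746-205321995) held 2 TEAD matches, 1 of them as the reverse complement CATTCC. The starts are those of RefSeq, and for all 4 genes they lie inside the span that GENCODE v29 gives the gene.
CCN2: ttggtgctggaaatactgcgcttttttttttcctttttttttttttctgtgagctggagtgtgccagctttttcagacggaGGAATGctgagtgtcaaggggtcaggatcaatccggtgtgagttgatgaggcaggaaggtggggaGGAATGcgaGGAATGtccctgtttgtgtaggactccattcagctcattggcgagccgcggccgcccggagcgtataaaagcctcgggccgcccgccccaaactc
ANKRD1: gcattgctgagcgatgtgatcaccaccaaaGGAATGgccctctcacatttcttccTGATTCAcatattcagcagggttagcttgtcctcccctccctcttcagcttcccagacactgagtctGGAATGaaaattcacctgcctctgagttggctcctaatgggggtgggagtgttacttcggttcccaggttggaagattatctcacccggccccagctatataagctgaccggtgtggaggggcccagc
AMOTL2: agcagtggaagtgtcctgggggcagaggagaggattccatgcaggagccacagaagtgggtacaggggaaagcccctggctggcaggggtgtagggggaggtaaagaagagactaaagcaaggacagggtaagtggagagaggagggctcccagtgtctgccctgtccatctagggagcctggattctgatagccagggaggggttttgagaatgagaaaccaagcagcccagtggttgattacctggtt
NUAK2: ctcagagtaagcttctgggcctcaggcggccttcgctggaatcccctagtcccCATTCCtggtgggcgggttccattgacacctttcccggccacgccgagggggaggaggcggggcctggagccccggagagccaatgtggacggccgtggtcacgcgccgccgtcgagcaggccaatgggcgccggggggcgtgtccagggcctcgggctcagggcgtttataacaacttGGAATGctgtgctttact
Among the other members, TEAD letters were found for LATS2, PTPN14, WTIP, WWC2 and YAP1, of which none was called, and AP-1 letters for F3 and MOB1B. The called component AJUBA had neither.

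CCN1 had 17.1, 21.3 and 19.3 CPM in NC and 34.7, 36.8 and 37.2 CPM in ORF-Flag. The lowest ORF-Flag library was well above the highest NC library. Its log2 fold change of 0.91 (SE 0.069) was the largest of the 37 tested members, and it lay between 0.84 and 0.98 with each library left out. CCN1 (ENSG00000142871) lies on chromosome 1 from 85580761 to 85583962 on the plus strand (GRCh38, GENCODE v29, as for the other genes), and no annotated gene overlaps its exons. ANKRD1 had 141.5, 162 and 159 CPM in NC and 254, 285 and 253 CPM in ORF-Flag. The groups were far apart, and the log2 fold change was 0.77 (SE 0.047). ANKRD1 (ENSG00000148677), on chromosome 10 from 90912096 to 90921276 on the minus strand, was also the output with the highest level per length, at 77.8 RPKM in NC and 133 RPKM in ORF-Flag.

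CCN2 had 61.4, 69.1 and 61.0 CPM in NC and 91.9, 94.6 and 94.0 CPM in ORF-Flag. The groups did not overlap, with the 3 ORF-Flag libraries close together, and the log2 fold change was 0.55 (SE 0.046). CCN2 (ENSG00000118523) lies on chromosome 6 from 131948176 to 131951373 on the minus strand, and an antisense gene covers 8.34% of its exon length. CRIM1, which encodes a transmembrane protein that binds bone morphogenetic proteins, had 143, 149.6 and 144 CPM in NC and 156, 163 and 164 CPM in ORF-Flag. Its groups did not overlap, but the log2 fold change of 0.15 (SE 0.036) was the smallest of the 6 called members, and the call was lost without ORF-Flag replicate 2 and without ORF-Flag replicate 3, where the value was 0.14 and 0.13. CRIM1 (ENSG00000150938) lies on chromosome 2 from 36355926 to 36551135 on the plus strand, and an antisense gene covers 2.49% of its exon length. CCN1, ANKRD1 and CCN2 were called in all 12 alternative fits.

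**Figure D4:**
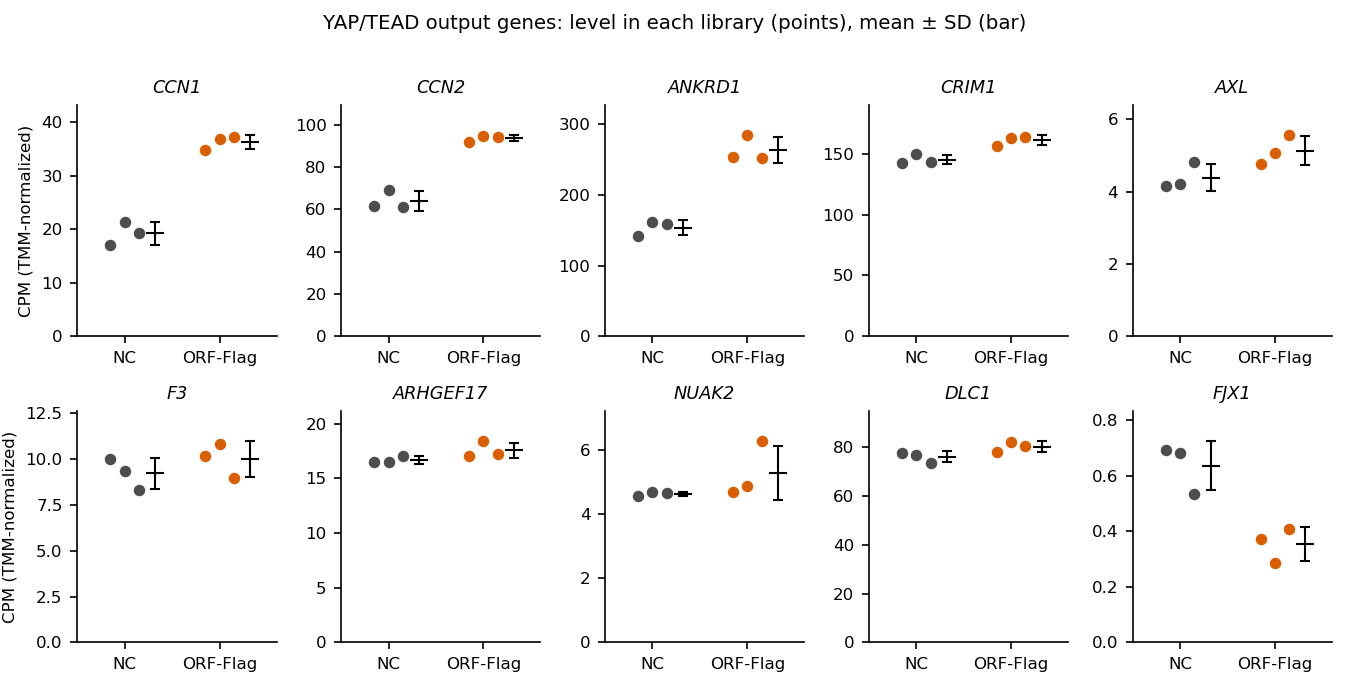
Each panel shows the CPM of 1 output gene in the 3 NC and 3 ORF-Flag libraries as points, with the mean and SD as a bar and an axis that starts at 0. Every ORF-Flag library lies above NC in CCN1, CCN2, ANKRD1 and CRIM1, and by less in NUAK2 and DLC1, the groups overlap in AXL, F3 and ARHGEF17, and every ORF-Flag library lies below NC in FJX1.

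The other 6 outputs were not called, and none of them had an unadjusted p below 0.05. Over all tested genes 4.45% were called, and 9.29% were higher and 9.22% lower at that unadjusted p. DLC1 had 77.7, 76.8 and 73.6 CPM in NC and 77.8, 82.1 and 80.2 CPM in ORF-Flag. The ORF-Flag libraries began just above the highest NC library, and the log2 fold change was 0.074 (SE 0.042). ARHGEF17 had 16.5, 16.5 and 17.1 CPM in NC and 17.1, 18.4 and 17.3 CPM in ORF-Flag. ORF-Flag replicate 1 lay within the NC range, and the log2 fold change was 0.069 (SE 0.070). An antisense gene covers 9.75% of its exon length. F3, the tissue factor of blood clotting, had 9.99, 9.37 and 8.32 CPM in NC and 10.2, 10.9 and 8.96 CPM in ORF-Flag, with overlapping groups and a log2 fold change of 0.12 (SE 0.10).

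AXL, a receptor tyrosine kinase, had 4.15, 4.20 and 4.81 CPM in NC and 4.77, 5.06 and 5.56 CPM in ORF-Flag. The groups overlapped by 1 NC library, and the log2 fold change was 0.22 (SE 0.13). NUAK2, a kinase of the AMPK family, had 4.55, 4.68 and 4.64 CPM in NC and 4.69, 4.88 and 6.26 CPM in ORF-Flag. All ORF-Flag libraries were above NC, but ORF-Flag replicate 3 set most of the log2 fold change of 0.20 (SE 0.14), which was 0.045 without it. FJX1, the human relative of a fly gene of planar cell polarity, had 0.692, 0.681 and 0.535 CPM in NC and 0.372, 0.287 and 0.407 CPM in ORF-Flag, from 5 to 17 counts per library. It was lower in every ORF-Flag library, with a log2 fold change of -0.78 (SE 0.38), and it was the single output with a negative value. Overlapping genes also cover between 0.835% and 4.94% of the exon length of STK3, MOB1B, TAOK1, AMOT, AMOTL1 and AXL.

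As lists, 9 of the 10 outputs and 15 of the 27 tested components had a log2 fold change above 0, beside 6133 of the 12386 tested genes. The median log2 fold change was 0.17 over the outputs, 0.045 over the components and -0.0012 over all tested genes. Each library was also set against the mean of the NC libraries. The median over outputs was -0.024, 0.034 and -0.0056 in the NC libraries and 0.11, 0.18 and 0.26 in the ORF-Flag libraries, on the log2 scale. Every ORF-Flag library was above every NC library. For the components the medians were -0.011, 0.018 and -0.018 in NC and 0.031, 0.055 and 0.044 in ORF-Flag. These groups did not overlap either, at a smaller distance, and the difference between outputs and components was not tested. Both lists were chosen with this contrast known, so nothing is read from these counts and medians. The component median was between 0.019 and 0.058 with each library left out, at 0.019 without NC replicate 1, 0.020 without ORF-Flag replicate 2 and 0.026 without ORF-Flag replicate 3, while that of the outputs was between 0.14 and 0.22.

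**Figure D5:**
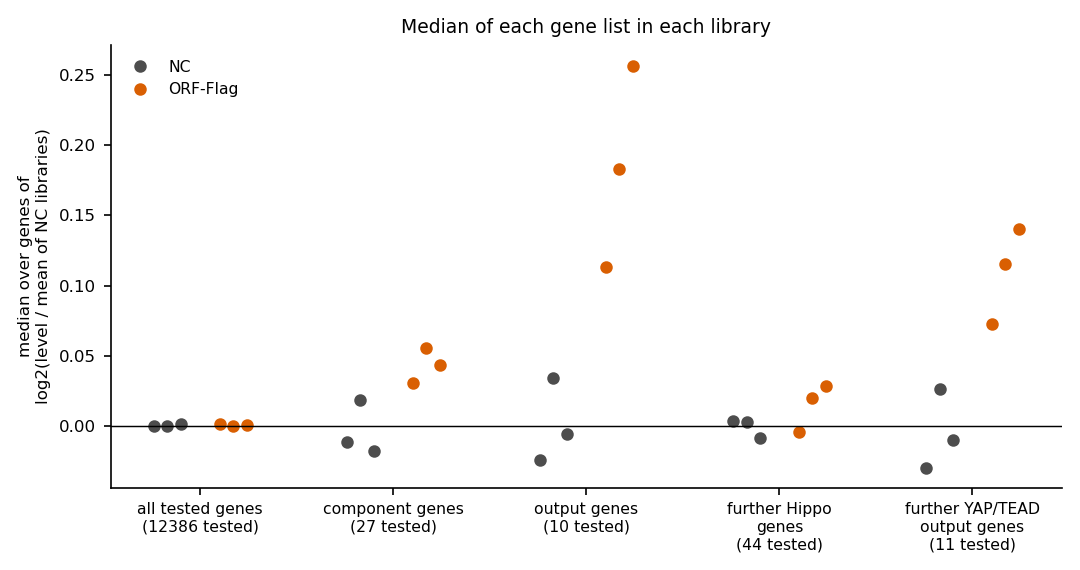
For each gene list, points give the median over its tested genes of the log2 ratio of each library to the mean of the NC libraries. The outputs reach 0.11 to 0.26 in ORF-Flag and the components 0.031 to 0.055, and all tested genes stay at 0 in each library to within 0.0018.

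LATS2, AMOTL2, PTPN14 and NF2 are components that are also known as outputs of YAP and TEAD, through which the pathway limits itself. Their log2 fold changes were 0.11, 0.49, -0.011 and -0.090, with a median of 0.052. AMOTL2 alone of the 4 was called. The median of the other 23 tested components was 0.045, with 1 called. Over all tested genes 2.47% were called higher and 1.98% lower. The difference between the 4 and the other components was not tested, and nothing is read from these counts.

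A further list held 15 genes known as YAP/TEAD outputs outside the 39 members, and 11 of them had enough counts for the test. Their log2 fold changes were all above 0, with a median of 0.12 and a range from 0.024 to 0.54, and 2 were called higher. None was called lower by edgeR, DESeq2 or limma-trend, where edgeR called 2.47% of all tested genes higher and 1.98% lower. At an unadjusted p below 0.05 in edgeR 8 were higher and 0 lower, beside 9.29% and 9.22% of all tested genes. GADD45A, a growth arrest gene that is also known as a target of p53, had 43.1, 43.4 and 42.4 CPM in NC and 51.6, 50.4 and 49.97 CPM in ORF-Flag. The groups did not overlap, and it rose with a log2 fold change of 0.24 (SE 0.048) and an adjusted p of 0.0042 from edgeR. Its call was kept in all 12 alternative fits. In 8 of the 11 genes all ORF-Flag libraries were above NC, and in 0 all below, beside 11.5% and 10.9% of all tested genes. The list was chosen with earlier results of these libraries known, so nothing is read from these shares. MYOF had the largest value, 0.54 (SE 0.22), from 20 to 54 counts per library, and was not called, with an adjusted p of 0.18 from edgeR. IGFBP3, FOXF2, RBMS3 and TGFB2 were too low for the test.

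A second list held 52 further genes of Hippo signalling, among them polarity scaffolds, the STRIPAK phosphatase complex that opposes STK3 and STK4, 14-3-3 proteins that hold YAP in the cytoplasm, and the casein kinases and ubiquitin ligases that lead to its degradation. Of the 44 tested, 1 was called higher and 0 lower by edgeR, by DESeq2 and by limma-trend alike, beside 2.47% and 1.98% of all tested genes in edgeR. At an unadjusted p below 0.05 in edgeR 4 were higher and 4 lower, beside 9.29% and 9.22% of all tested genes. Their median log2 fold change was 0.014, and that of all tested genes was -0.0012. MAP4K3, a kinase related to MAP4K4, had 68.3, 74.4 and 74.3 CPM in NC and 79.0, 81.5 and 83.6 CPM in ORF-Flag. The groups did not overlap, and the log2 fold change was 0.17 (SE 0.044) with an adjusted p of 0.030 from edgeR. This call held without NC replicate 3 and was lost in the other 5 fits that left out 1 library. In those 5 fits the log2 fold change lay between 0.13 and 0.19, and the adjusted p from edgeR was up to 0.18.

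Markers of liver cells and of other cells that express output genes were read in the same libraries. All 10 hepatocyte markers were tested, with summed levels of 28412, 28999 and 29358 CPM in NC and 29525, 29100 and 29151 CPM in ORF-Flag. Of these, 1, FGB, was called higher, with a log2 fold change of 0.14 (SE 0.036). Its call was lost in 5 of the 6 fits that left out 1 library, with values between 0.11 and 0.16 in those 5. At an unadjusted p below 0.05 in edgeR 3 of the 10 were higher and 1 lower. Over all tested genes 2.47% were called higher and 1.98% lower, and 9.29% and 9.22% were higher and lower at that unadjusted p, which are also the shares for the marker lists below. Per length ALB was the most abundant, at 2084 RPKM in NC and 2202 RPKM in ORF-Flag. FGB, ALB and SERPINA1 were above NC in every ORF-Flag library, and APOB had overlapping groups. The log2 fold changes of ALB, SERPINA1 and APOB were 0.079 (SE 0.034), 0.086 (SE 0.032) and -0.073 (SE 0.034), none of them called and each with an unadjusted p below 0.05 in edgeR. Of 7 fibroblast markers, 1 was tested and 0 were called by edgeR, DESeq2 or limma-trend (0 at an unadjusted p below 0.05), DCN was at 0 in every library, and the sum was at most 1.08 CPM. Of 5 endothelial markers, 1 was tested and 0 were called by the same tools (1 higher at an unadjusted p below 0.05), and KDR and TEK were at 0 in every library. Their sum was 4.75, 4.16 and 5.01 CPM in NC and 6.55, 5.51 and 6.26 CPM in ORF-Flag, nearly all from PECAM1, and the groups did not overlap. Of 5 leukocyte markers, 3 were tested and 1, LYZ, was called higher, with 1255, 1401 and 1396.5 CPM in NC and 1488, 1591 and 1488 CPM in ORF-Flag. The call of LYZ was lost without ORF-Flag replicate 2, where its log2 fold change was 0.14, beside 0.17 with all 6 libraries. The other tested leukocyte markers, CD68 and CD14, had log2 fold changes of -0.028 (SE 0.058) and 0.29 (SE 0.36). In both the groups overlapped and neither was called, and CD14 had only 8 to 21 counts per library. PTPRC, which defines leukocytes, and CD3E, which defines T cells, were at 0 in every library. The part of the hepatocyte markers, PECAM1 and LYZ in the differences of the output genes was not tested.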

How the data were processed

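RNA-Seq of HepG2 cells was taken from 6 libraries, grouped by the sample labels. The deposited values were raw read counts by gene, made by the authors without normalization. The submitters' processing notes name cutadapt 1.11, HISAT2 2.1.0, featureCounts 1.6.0, edgeR and GRCh38. The strand setting is not given in the sources used here. Symbols were matched for 20421 of 20422 identifiers.

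Counts were analysed in R 4.3.3 with edgeR 4.0.16: filterByExpr's default filter, TMM, glmQLFit and glmQLFTest, with Benjamini-Hochberg adjustment over 12386 genes. The SE of a log2 fold change was its size divided by the square root of F. The common biological coefficient of variation was 0.0389. TMM factors lay between 0.995 and 1.01. Within groups, chi-square per degree of freedom between libraries was 2.39 to 5.23, so no library repeated another. RPKM used exon lengths of GENCODE v29. Tests were checked on simulated data.

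The members and lists were chosen with earlier results of these data known. All members are named by role, with values in every library for the outputs, the called components, YAP1, WWTR1, the TEAD genes, LATS1 and LATS2, and for genes of the further lists that were called, of which 1 is not reported here. Library values of MOB1A, WWC1, MAP4K4, LIMD1, AMOT, AMOTL1 and LYZ, and MYOF, ALB, SERPINA1 and APOB, were added after their values were seen. Alternatives were DESeq2 1.42.0, limma-trend (limma 3.58.1, prior count 2), library sizes without TMM, no filter (at least 1 count), at least 10 counts in every library, the replicate number as a block, and each library left out in turn. Figures were drawn with matplotlib 3.10.9.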

Additional observations from a re-analysis of the deposited data

How the results depend on the processing

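Of the single-gene values of the 37 tested members, 440 kept their direction and their side of the threshold, or moved by less than the spread between libraries, 2 lost a call and 1 gained one. The 6 calls among members were kept with DESeq2, limma-trend, library sizes without TMM, no filter, at least 10 counts in every library and the replicate block. Leaving out 1 library ended the call of CRIM1 without ORF-Flag replicate 2 or 3 and added a call of LIMD1 without NC replicate 3, and no called value reversed. Over these 6 fits, the genes called over all tested genes ran from 199 (without ORF-Flag replicate 3) to 1058 (without NC replicate 3), with 267 without NC replicate 2, 300 without ORF-Flag replicate 1 and 278 without ORF-Flag replicate 2. Members called lower and components called lower each ran from 0 to 1, members called higher from 5 to 6, output genes called higher from 3 to 4, and the median of the components from 0.019 to 0.058. The fits without a library tested fewer samples. With all 6 libraries 551 genes were called, so the count rose without NC replicate 3, and the cause of these moves was not tested. No source says that equal replicate numbers pair the libraries, and the main fit did not pair them. Same-numbered libraries correlated weakly in their deviations from the group means, at 0.067, 0.027 and 0.045. Every library correlated best with its own number except ORF-Flag replicate 2, a hint from the data and not the design. With the replicate block, 731 genes were called over all tested genes, with 6 members called higher and 0 lower. FJX1 had no value at 10 counts in every library, and depth limits what can be said of AMOT, AMOTL1, FRMD6 and FJX1.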

Other observations

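Of the 44 tested genes in the list of further Hippo genes, the groups did not overlap in 10. All ORF-Flag libraries were above NC in 6 and below NC in 4, beside 11.5% and 10.9% of all tested genes. MAP4K3 alone of the 10 was called. The genes that follow were chosen after their values were seen. SCRIB had 84.4, 77.6 and 72.8 CPM in NC and 71.6, 72.3 and 71.7 CPM in ORF-Flag, with a log2 fold change of -0.12 (SE 0.048). LLGL1 had 28.3, 26.5 and 23.8 CPM in NC and 23.4, 23.7 and 21.5 CPM in ORF-Flag, with -0.19 (SE 0.071), and DLG5 had 127, 136 and 127 CPM in NC and 117, 119.6 and 125 CPM in ORF-Flag, with -0.11 (SE 0.039). Their edgeR adjusted p-values were 0.17, 0.13 and 0.11. They are scaffolds of cell polarity, and PALS1, PATJ and PARD3, other polarity scaffolds of the list, had log2 fold changes of 0.048 (SE 0.061), 0.061 (SE 0.052) and 0.061 (SE 0.038) with overlapping groups. WWC3, the paralog of WWC1 and WWC2, had 2.77, 2.72 and 2.54 CPM in NC and 3.61, 3.50 and 3.93 CPM in ORF-Flag. Its log2 fold change of 0.47 (SE 0.16), from 56 to 106 counts per library, was not called, with an edgeR adjusted p of 0.092.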
